A study of Mus musculus with 16 samples.

Results

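The integrins and adhesion molecules described here are 9 genes of cultured mouse dendritic cells, Itgal, Itgam, Itgax, Itgb2, Itga4, Itgav, Icam1, Vcam1 and Cd44. They were taken by name: every probe set that the platform's gene annotation assigns to one of these symbols was kept, which gave 23 of the 45101 probe sets on the array and 9 of the 18193 genes measured. The rule uses the names alone, though the set was proposed with earlier results of these data known. A gene with several probe sets is represented by its brightest one on average, and the others are given beside it.

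The cells were grown from bone marrow of wild-type C57BL/6 mice for 8 days with GM-CSF at 15 ng/ml, and the non-adherent cells were harvested as immature dendritic cells. They were then kept with GM-CSF at 10 ng/ml, either with Lactobacillus acidophilus NCFM, a bacterial strain used as a probiotic, at 10 µg/ml, or as controls sampled at the same times. There were 3 arrays of NCFM-treated cells for every time, 4 h, 10 h and 18 h. Of control cells there were 3 at the earliest time and 2 at both later ones. Treated and control cells therefore share the mouse strain, the cytokine and the culture conditions, and differ in the bacteria. The labels number the arrays of each group but do not say whether a number marks a mouse, a culture or a repeat of the same cells. At 10 h and 18 h the control groups hold no array numbered 3, so array number is not balanced between the conditions. Differences of group means at these times can therefore mix in differences between array numbers. Array 1 was far lower in Xist and higher in the Y-linked Eif2s3y than the other arrays of its group in 6 of 6 groups, so array 1 is not a repeat of the cells on the others. Whether arrays 2 and 3 come from separate cultures is not stated, and p-values below measure the spread between these arrays.

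Integrins are membrane receptors made of an alpha and a beta chain. On leukocytes the beta2 chain (Itgb2, CD18) pairs with alpha L (Itgal), alpha M (Itgam) or alpha X (Itgax, CD11c) and binds, among other ligands, ICAM-1, while alpha 4 (Itga4) with a beta1 or beta7 chain binds VCAM-1 and fibronectin. The ligands ICAM-1 and VCAM-1 are known as genes switched on by NF-kB, and on a dendritic cell ICAM-1 takes part in the contact with T cells. CD44 binds hyaluronan, a polysaccharide of the extracellular matrix.

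Each array holds 1 intensity per probe set on a linear scale. Array medians lay between 162 and 167 and first quartiles between 104 and 108, so a probe set under about that level is close to the background of these arrays. Of 11 dendritic cell markers other than Itgax, 10 were above the array median on every array, with a summed intensity of 58304 to 78023 in NCFM-treated cells at 18 h and 72739 to 74876 in control cells. Neutrophil markers were also present: 7 of 9 were above the array median on all arrays, and their summed intensity was 7483 to 18687 in NCFM-treated cells at 18 h, against 30244 to 31646 in control cells. At 10 h that sum was 16302 to 36856 in NCFM-treated cells and 47055 to 53770 in control cells. The summed intensity of 5 plasmacytoid dendritic cell markers was 10128 to 13408 in NCFM-treated cells at 18 h and 2544 to 3701 in control cells, mostly Bst2. At 18 h Bst2 was higher (log2 difference 2.38, limma adjusted p = 0.000108) and Ccr9 lower (-0.63, adjusted p = 0.0232). Siglech and Ly6d were above the array median on no array. These are bulk samples, in which fewer cells of a type and less RNA per cell cannot be told apart.

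Icam1 and Vcam1, the 2 ligands in the set, were higher in NCFM-treated cells at all 3 times. The beta2-integrin alpha chains Itgax and Itgam and the hyaluronan receptor Cd44 were lower by 18 h, Itgax already at 10 h, and Itgav was higher at 10 h and 18 h. Itga4 passed the test at no time. In counts, 2 of the 9 genes were higher and 0 lower at 4 h, 3 were higher and 1 lower at 10 h, and 3 were higher and 3 lower at 18 h (limma, Benjamini-Hochberg adjusted p under 0.05 over all genes). Over all genes the same rule called 18.3% at 4 h (5.27% higher, 13.1% lower), 24.7% at 10 h (8.21% higher, 16.5% lower) and 23.7% at 18 h (7.4% higher, 16.3% lower). The median difference of the 9 genes was 0.10, -0.35 and -0.30 on the log2 scale at 4 h, 10 h and 18 h, beside -0.01, 0.01 and 0.00 over all genes. Arrays of the 2 conditions did not overlap for 3 higher genes at 4 h (13.8% of all genes), for 3 higher and 3 lower at 10 h (23.2% and 28.9%) and for 3 higher and 4 lower at 18 h (21.1% and 26.1%). With the array number as a block, 7 of the 9 genes were called at 10 h, 2 higher and 5 lower, where that fit called 31.1% of all genes, and 8 were called at 18 h, 3 higher and 5 lower, where it called 30.5%. At 4 h it called the same number as without the block, beside 26.8% of all genes.

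**Figure D1:**
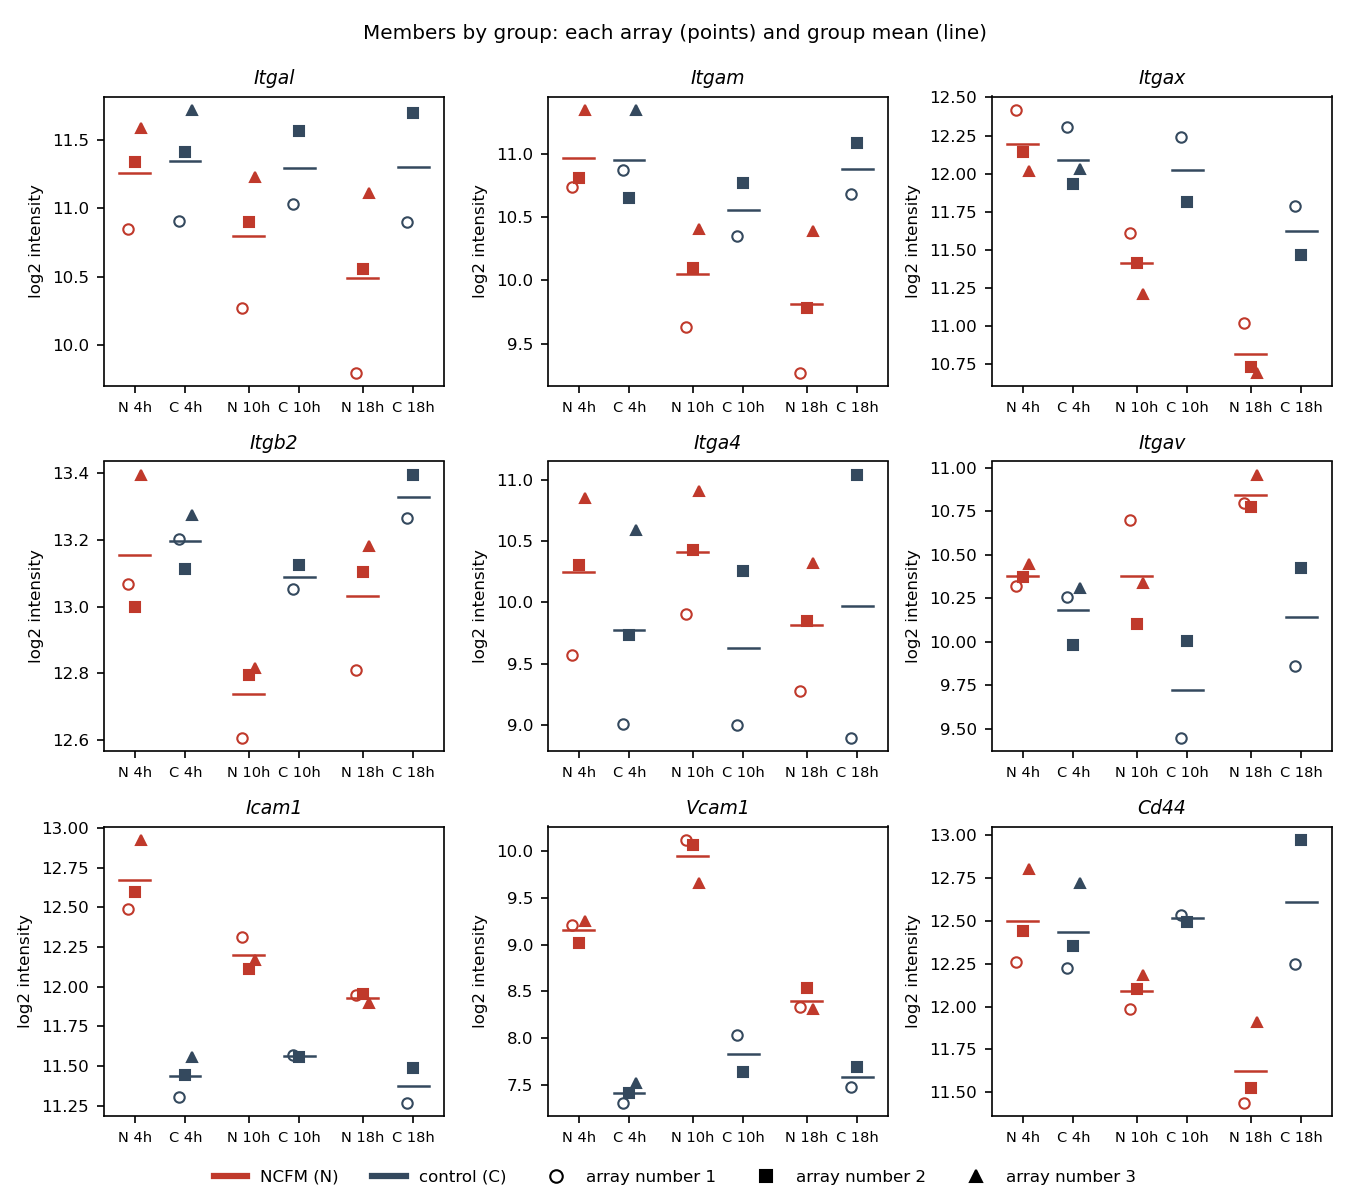
Log2 intensity of the probe set used for each of the 9 genes (vertical axis) on every array, for NCFM-treated (N) and control (C) cells at 4 h, 10 h and 18 h; points are arrays, shaped by array number, and lines are group means. Icam1 and Vcam1 arrays of NCFM-treated cells lie above those of control cells at each time, while Itga4 arrays spread by number within every group.

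Icam1 encodes ICAM-1, the main ligand of the beta2 integrins. At 4 h its intensity was 5761, 6205 and 7782 in NCFM-treated cells, against 2532, 2787 and 3017 in control cells. At 10 h it was 5097, 4427 and 4594 in NCFM-treated cells and 3037 and 3009 in control cells. At 18 h it was 3953, 3961 and 3806 in NCFM-treated cells and 2462 and 2871 in control cells. The arrays of the 2 conditions did not overlap at any time, and the treated level was highest at 4 h and lowest at 18 h while the control level lay between 2462 and 3037 throughout. Icam1 was 2.36-fold higher at 4 h (log2 difference 1.24 ± 0.11, SE, adjusted p = 1.37e-05), 1.55-fold higher at 10 h (0.64 ± 0.12, adjusted p = 0.00219) and 1.47-fold higher at 18 h (0.56 ± 0.12, adjusted p = 0.005). The 18 h call did not hold without control 18 h array 1 (0.44, adjusted p = 0.0524), the highest adjusted p of its 26 alternatives, of which the lowest was 0.0011.

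RefSeq's promoter table (build GRCm38.p6) holds an entry for 6 of the 9 genes, Icam1, Itgax, Itgam, Itga4, Itgav and Cd44. The 250 bases before the start of Icam1, at chr9:21015690-21015939 on the plus strand, are shown because Icam1 was higher at every time and is known as an NF-kB target. Capitals mark matches, on either strand, to GGAANNNCC, a short form of the NF-kB site.
Icam1: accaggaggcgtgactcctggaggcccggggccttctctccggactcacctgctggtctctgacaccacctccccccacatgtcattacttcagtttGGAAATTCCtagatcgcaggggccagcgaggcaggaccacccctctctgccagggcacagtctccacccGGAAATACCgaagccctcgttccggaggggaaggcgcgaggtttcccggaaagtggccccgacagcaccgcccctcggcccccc
The letters matched at 153 to 145 bases before the start, where the sequence GGAAATTCC matched on both strands, and at 84 to 76 bases before it. Of all 32841 promoters of this length, 15.7% held at least 1 match to GGAANNNCC on either strand. The longer NF-kB consensus, held by 7.25% of promoters, had no match in this window. None of the other 5 promoters held a match to GGAANNNCC. A match describes letters only and does not show that a factor binds there.

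Vcam1 encodes VCAM-1, the ligand of the alpha 4 integrins. Its 4 h arrays read 592, 519 and 609 in NCFM-treated cells, against 158, 170 and 184 in control cells. The 10 h arrays read 1115, 1074 and 809 in NCFM-treated cells and 262 and 199 in control cells. The 18 h arrays read 322, 372 and 317 in NCFM-treated cells and 178 and 206 in control cells. No treated array reached down to a control array, and the treated level was highest at 10 h. Vcam1 was 3.36-fold higher at 4 h (log2 difference 1.75 ± 0.14, SE, adjusted p = 8.06e-06), 4.33-fold higher at 10 h (2.12 ± 0.15, adjusted p = 4.42e-06) and 1.76-fold higher at 18 h (0.81 ± 0.15, adjusted p = 0.00229). All 3 calls held under each of 26 alternatives. Control levels were close to the array median: with background subtracted the 10 h difference was 2.51, and over the mean of the 3 Vcam1 probe sets it was 1.19. Vcam1 is also a gene of activated endothelium, and the summed intensity of 7 endothelial markers was 1467 to 1668 in NCFM-treated cells at 4 h and 1167 to 1268 in control cells, 1551 to 2966 and 1087 to 1209 at 10 h, and 1466 to 2312 and 1098 to 1286 at 18 h. Kdr, at 269 to 2152 over the arrays, was the only marker of the 7 above the array median on every array. Kdr was higher at each time (1.29, 2.23 and 1.84 on the log2 scale), Cdh5 at 4 h (0.23) and Pecam1 at 18 h (0.35), and Vwf was lower at 18 h (-0.997). Cdh5, Tek, Tie1 and Emcn were above the array median on no array. The part of endothelial RNA in the Vcam1 values was not tested.

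Both other Vcam1 probe sets were dimmer and moved in the same direction by less. Probe set 1415989_at was higher by 0.76 ± 0.10 at 4 h and 1.08 ± 0.12 at 10 h (SE, adjusted p = 0.000503 and 6.44e-05 over every probe set, of which 4.5% and 6.59% were called higher). At 18 h its difference was 0.36 (adjusted p = 0.0522). Probe set 1451314_a_at differed by 0.29, 0.37 and 0.18 at 4 h, 10 h and 18 h and was called at the first 2 times.

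Between times, the Icam1 effect was smaller at 18 h than at 4 h by 0.68 ± 0.16 and the Vcam1 effect by 0.94 ± 0.20 on the log2 scale (SE, adjusted p = 0.0379 and 0.028), the only 2 of the 9 genes called in that comparison, in which 3.4% of all genes were. Leaving out single arrays ended these calls often: the Icam1 call held in 15 of 26 alternatives (adjusted p 0.0152 to 0.124) and the Vcam1 call in 19 of 26 (0.0162 to 0.0933). Single arrays without which the Icam1 call was lost were NCFM 4 h array 2, NCFM 10 h arrays 2 and 3, each of the 3 NCFM 18 h arrays, control 4 h arrays 1 and 2 and control 18 h array 2 (adjusted p 0.0505 to 0.124). For Vcam1 they were NCFM 4 h arrays 1 and 3, NCFM 18 h array 3, control 4 h arrays 1 and 2 and control 18 h array 2 (adjusted p 0.0521 to 0.0933). For the other Vcam1 probe sets the effect at 18 h minus that at 4 h was -0.40 (1415989_at) and -0.11 (1451314_a_at). Neither was called (limma, adjusted p = 0.258 and 0.668 over every probe set). In treated cells alone, Vcam1 was 1.73-fold higher at 10 h than at 4 h (adjusted p = 0.00519) and lower at 18 h than at 10 h (log2 difference -1.56, adjusted p = 0.000679). Those comparisons of treated cells called 6.28% and 2.79% of all genes. With the block, the Vcam1 effect was also smaller at 18 h than at 10 h (difference -1.30, adjusted p = 0.0381, against 0.0843 without it).

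The 4 genes of beta2 integrins did not pass the test at 4 h and were lower in NCFM-treated cells afterwards, by amounts that passed for Itgax and Itgam and, with the array number as a block, for all 4. Neutrophils carry Itgam, Itgal and Itgb2 too. Of 9 neutrophil markers 0 were called lower at 4 h, 3 at 10 h and 2 at 18 h, with median differences of -0.39, -0.92 and -0.999. Over all genes 13.1%, 16.5% and 16.3% were called lower, so the 18 h count is near that share. Of 7 macrophage or monocyte markers other than Itgam, 1, 2 and 1 were called higher at these times. Called lower were 0, 0 and 1, and the median differences were -0.06, 0.24 and 0.31. The part of either cell type in the values below was not tested.

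Itgax encodes the alpha chain CD11c, the usual surface mark of dendritic cells. Intensities at 4 h were 5478, 4515 and 4149 in NCFM-treated cells, against 5073, 3901 and 4179 in control cells. Those at 10 h were 3135, 2730 and 2371 in NCFM-treated cells and 4830 and 3606 in control cells. Those at 18 h were 2079, 1699 and 1654 in NCFM-treated cells and 3534 and 2830 in control cells. The groups overlapped at 4 h, and at 10 h and 18 h all treated arrays were lower than both control arrays. Itgax was lower at 10 h (log2 difference -0.61 ± 0.18, SE, adjusted p = 0.0262) and at 18 h (-0.81 ± 0.18, adjusted p = 0.00622), a level 1.53-fold and 1.76-fold below the control. In treated cells it was also lower at 10 h than at 4 h (-0.78, adjusted p = 0.0145), a call lost without NCFM 4 h array 1 or NCFM 10 h array 2 or 3 (adjusted p 0.0503, 0.0537 and 0.0709).

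Of the 11 other dendritic cell markers, 1 was higher and 1 lower at 10 h, and 0 were higher and 3 lower at 18 h, when Clec10a differed by -2.44, Ciita by -0.54 and Cd74 by -0.23, with a median of -0.197. Over all genes 8.21% were higher and 16.5% lower at 10 h, and 7.4% and 16.3% at 18 h. The part of these markers' cells in the Itgax values was not tested.

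The 10 h call of Itgax held in 22 of 26 alternatives (adjusted p 0.000157 to 0.283). It was lost without control 10 h array 1 (-0.40, adjusted p = 0.283), without NCFM 10 h array 2 or 3 (0.0623 and 0.0933) and in a fit of the 10 h arrays alone (0.0716). At 18 h only the fit without control 18 h array 1 lost it (-0.65, adjusted p = 0.061). With the block, the Itgax effect was lower at 10 h than at 4 h (-0.65, adjusted p = 0.00778, against 0.259 without it) and lower at 18 h than at 4 h (-0.85, adjusted p = 0.000561, against 0.0618).

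Itgam encodes the alpha chain CD11b of complement receptor 3, found on myeloid cells. At 4 h its intensity was 1707, 1796 and 2617 in NCFM-treated cells, against 1875, 1610 and 2607 in control cells. At 10 h it was 794, 1099 and 1359 in NCFM-treated cells and 1304 and 1750 in control cells. At 18 h it was 615, 881 and 1340 in NCFM-treated cells and 1645 and 2174 in control cells. The groups overlapped at 4 h and 10 h and were apart at 18 h, when the level was 2.10-fold below the control (log2 difference -1.07 ± 0.33, SE, adjusted p = 0.0352). At 10 h the difference of -0.51 ± 0.33 did not pass (adjusted p = 0.288), and with the block it did (-0.73 ± 0.15, adjusted p = 0.00385, 0.00385 to 0.65 over 26 alternatives).

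Same-numbered arrays gave Itgam differences of -0.72 and -0.67 at 10 h and of -1.42 and -1.30 at 18 h. The 18 h call held in 19 of 26 alternatives (adjusted p 0.000105 to 0.213). It was lost without NCFM 18 h array 1 (-0.80, adjusted p = 0.102) or 2 (0.0843), without control 18 h array 1 (0.0565) or 2 (-0.87, adjusted p = 0.213), after quantile normalization (0.0584), in a fit of the 18 h arrays alone (0.126) and with the arrays numbered 2 and 3 only (0.0885). With the block, the Itgam effect was lower at 18 h than at 4 h (-1.30, adjusted p = 0.00333, against 0.255 without it).

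The promoters of these 2 alpha chains, which lie on the same chromosome, are shown because both genes were lower at 18 h. Capitals mark TGANTCA, the letters of an AP-1 site, for Itgax (chr7:128129300-128129549, plus strand) and GAGGAA, the core letters of a site of the myeloid factor PU.1, on either strand for Itgam (chr7:128062390-128062639, plus strand).
Itgax: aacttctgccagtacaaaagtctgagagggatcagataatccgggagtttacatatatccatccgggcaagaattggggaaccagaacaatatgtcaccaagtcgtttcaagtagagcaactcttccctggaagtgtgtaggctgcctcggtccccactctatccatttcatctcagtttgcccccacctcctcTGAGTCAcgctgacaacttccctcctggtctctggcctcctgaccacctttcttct
Itgam: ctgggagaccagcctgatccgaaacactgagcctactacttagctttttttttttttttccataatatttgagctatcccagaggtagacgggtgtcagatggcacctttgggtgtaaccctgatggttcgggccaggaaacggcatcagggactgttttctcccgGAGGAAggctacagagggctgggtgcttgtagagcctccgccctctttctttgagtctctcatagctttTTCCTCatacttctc
TGANTCA matched Itgax 56 to 50 bases before the start and was found in 6.75% of the 32841 promoters. GAGGAA matched Itgam at 84 to 79 bases before the start and, on the other strand, at 15 to 10 bases, and 23.3% of promoters held it. Itgax had no match to GAGGAA and Itgam none to TGANTCA in these windows. GAGGAA was also matched in the promoters of Cd44 and of Itgav, a gene that was higher in NCFM-treated cells.

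Itgal encodes the alpha chain CD11a of LFA-1. Its 4 h arrays read 1840, 2582 and 3067 in NCFM-treated cells, against 1916, 2722 and 3371 in control cells. The 10 h arrays read 1237, 1909 and 2400 in NCFM-treated cells and 2095 and 3021 in control cells. The 18 h arrays read 889, 1507 and 2217 in NCFM-treated cells and 1909 and 3322 in control cells. In every group array 1 was the lowest, and the 2 conditions overlapped at each time. The differences were -0.09 ± 0.37, -0.50 ± 0.41 and -0.81 ± 0.41 at 4 h, 10 h and 18 h (log2, SE) and none passed (adjusted p = 0.9, 0.407 and 0.184). Same-numbered arrays gave Itgal differences of -0.76 and -0.66 at 10 h and of -1.10 and -1.14 at 18 h. With the block, the only alternative that pairs arrays by number, Itgal was lower at 10 h (-0.72 ± 0.11, adjusted p = 0.000579) and 18 h (-1.03 ± 0.11, adjusted p = 5.34e-05). No other alternative called it at 10 h (adjusted p 0.000579 to 0.783 over 26), and at 18 h 1 other did, with the arrays numbered 2 and 3 only (-0.86, adjusted p = 0.0449).

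With the block, the Itgal effect was lower at 10 h than at 4 h (-0.63, adjusted p = 0.0498, against 0.882 without it) and lower at 18 h than at 4 h (-0.94, adjusted p = 0.00329, against 0.628). A dimmer Itgal probe set, 1425367_at, differed by 0.24, -0.14 and -0.13 at 4 h, 10 h and 18 h and was called at none of them. The brighter one differed by -0.81 at 18 h, and the difference between the 2 probe sets was not tested.

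Itgb2 encodes CD18, the beta chain common to these receptors. Intensities at 4 h were 8586, 8179 and 10779 in NCFM-treated cells, against 9426, 8866 and 9908 in control cells. Those at 10 h were 6233, 7107 and 7209 in NCFM-treated cells and 8507 and 8932 in control cells. Those at 18 h were 7189, 8803 and 9296 in NCFM-treated cells and 9850 and 10769 in control cells. All treated arrays were below both control arrays at 10 h and 18 h. The differences were -0.35 ± 0.13 and -0.30 ± 0.13 (log2, SE), and neither passed (adjusted p = 0.0654 and 0.117). With the block both did (-0.42 and -0.37, adjusted p = 0.00551 and 0.0118). Over 26 alternatives the adjusted p lay between 0.00192 and 0.21 at 10 h and between 0.0118 and 0.413 at 18 h.

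**Figure D2:**
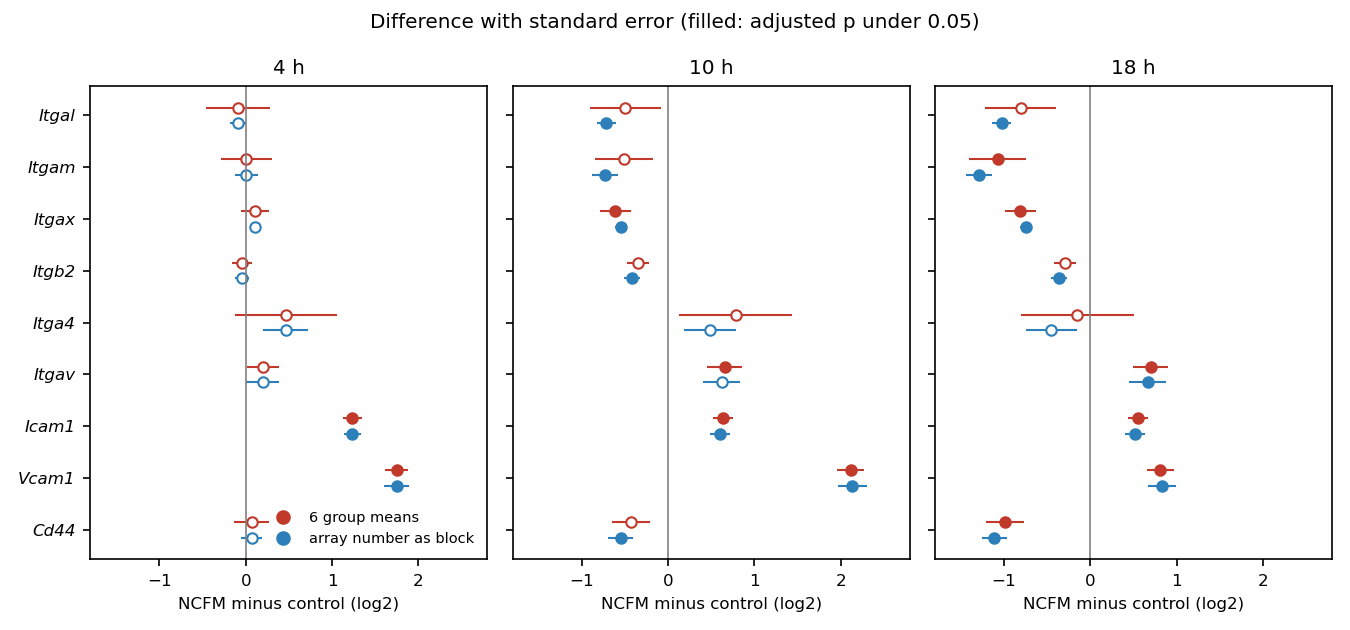
NCFM minus control difference in log2 intensity (horizontal axis) with its standard error for the 9 genes at 4 h, 10 h and 18 h, from 6 group means (red) and with the array number as a block (blue); filled points passed at an adjusted p under 0.05. Itgal and Itgb2 at 10 h and 18 h, and Itgam and Cd44 at 10 h, pass in the blocked fit only, and Itgav at 10 h in the other only.

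Itgav encodes alpha V, the chain of vitronectin and fibronectin receptors. At 4 h its intensity was 1277, 1324 and 1397 in NCFM-treated cells, against 1223, 1009 and 1268 in control cells. At 10 h it was 1661, 1098 and 1295 in NCFM-treated cells and 697 and 1026 in control cells. At 18 h it was 1777, 1750 and 1991 in NCFM-treated cells and 931 and 1374 in control cells. The treated arrays were above the control arrays at each time, narrowly at 4 h. Itgav was 1.57-fold higher at 10 h (log2 difference 0.66 ± 0.20, SE, adjusted p = 0.0349) and 1.62-fold higher at 18 h (0.70 ± 0.20, adjusted p = 0.0268). The 4 h difference of 0.20 ± 0.18 did not pass (adjusted p = 0.508).

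The Itgav calls rested on single arrays, above all on control array 1. Without control 10 h array 1 the 10 h difference was 0.38 (adjusted p = 0.369), and without control 18 h array 1 the 18 h difference was 0.42 (adjusted p = 0.233). The 10 h call was also lost without NCFM 10 h array 1 (0.50, adjusted p = 0.0969) or 3 (0.0715), with the block (0.62, adjusted p = 0.0502), after centring on spike-in controls (0.40, adjusted p = 0.142), in a fit of the 10 h arrays alone (0.127) and with the arrays numbered 2 and 3 only (0.22, adjusted p = 0.412). The 18 h call was lost without NCFM 18 h array 2 (0.0532) or 3 (0.0767), in a fit of the 18 h arrays alone (0.0751) and with the arrays numbered 2 and 3 only (0.0855). It held in 19 of 26 alternatives at 10 h (adjusted p 0.00136 to 0.412) and in 21 of 26 at 18 h (0.00205 to 0.233).

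A dimmer Itgav probe set, 1421198_at, was called higher at all 3 times, by 0.35, 0.33 and 0.43 (log2, adjusted p = 0.0176, 0.0317 and 0.00832 over every probe set, of which 5.91% were called higher at 18 h). It averaged 167 ± 12 in NCFM-treated cells at 4 h and 131 ± 3 in control cells (SD, n = 3 each), close to the array median. Of the other 3 Itgav probe sets, 1432679_at was called higher at 10 h (0.27), 1432296_a_at at 18 h (0.23) and 1432678_at at no time.

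Itga4 encodes alpha 4, the receptor chain for VCAM-1 and fibronectin. Its 4 h arrays read 763, 1268 and 1847 in NCFM-treated cells, against 516, 852 and 1544 in control cells. The 10 h arrays read 959, 1379 and 1919 in NCFM-treated cells and 512 and 1223 in control cells. The 18 h arrays read 623, 922 and 1281 in NCFM-treated cells and 476 and 2106 in control cells. The groups overlapped at each time, and array 1 was the lowest of every group. The differences of 0.47 ± 0.59, 0.79 ± 0.66 and -0.15 ± 0.66 at 4 h, 10 h and 18 h (log2, SE) passed in neither fit, and in none of 26 alternatives at any of these times. Its standard errors were the largest among the 9 genes. Same-numbered arrays differed by 0.39 and -1.19 at 18 h. Control 18 h array 2, which read 2106, had the lowest ratio of 5′ to 3′ actin signal, 0.646. Control 4 h array 3 was close to it at 0.653, and the highest ratio of the 16 arrays was 0.942. Whether this ratio bears on the Itga4 values was not tested.

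The other Itga4 probe sets gave no call either. Of these, 1421194_at came nearest, with differences of 0.90 at 4 h (adjusted p = 0.071) and 0.98 at 10 h (adjusted p = 0.0623) and of 0.16 at 18 h. Probe set 1450155_at differed by 0.46, 0.65 and 0.20 and probe set 1456498_at by 0.45, 0.19 and 0.24 at the 3 times. Probe set 1427615_at read between 55 and 67 on all arrays, below the first quartile of every array.

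Cd44 encodes the hyaluronan receptor CD44. Intensities at 4 h were 4908, 5557 and 7157 in NCFM-treated cells, against 4786, 5231 and 6766 in control cells. Those at 10 h were 4052, 4396 and 4653 in NCFM-treated cells and 5944 and 5775 in control cells. Those at 18 h were 2769, 2945 and 3842 in NCFM-treated cells and 4871 and 8054 in control cells. The groups overlapped at 4 h and were apart at 10 h and 18 h. At 18 h the level was 1.99-fold below the control (log2 difference -0.99 ± 0.22, SE, adjusted p = 0.00684). The 10 h difference of -0.43 ± 0.22 did not pass (adjusted p = 0.187), and with the block it did (-0.55, adjusted p = 0.0132, 0.0132 to 0.459 over 26 alternatives), as it did after centring on spike-in controls (0.0285) and in a fit of the 10 h arrays alone (0.026).

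The 18 h call of Cd44 held in 24 of 26 alternatives (adjusted p 0.000185 to 0.0987). It was lost without control 18 h array 2 (-0.63) and in a fit of the 18 h arrays alone (adjusted p = 0.078). Control 18 h array 2 had the lowest ratio of 5′ to 3′ actin signal, 0.646, with control 4 h array 3 close to it at 0.653. Whether this ratio bears on the Cd44 values was not tested. Control 18 h array 2 was the higher array of its group on the probe set used. On 1423760_at and 1452483_a_at it was the lower one, at 2573 against 3446 and 744 against 982. Among the other 3 Cd44 probe sets, 1423760_at differed by -0.55 at 18 h (adjusted p = 0.0788), 1452483_a_at by -0.29 (adjusted p = 0.399) and the dim 1443265_at by -0.01. None of these 3 was called at any of the 3 times. With the block, the Cd44 effect was lower at 18 h than at 4 h (-1.18, adjusted p = 0.00395, against 0.0804 without it).

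**Figure D3:**
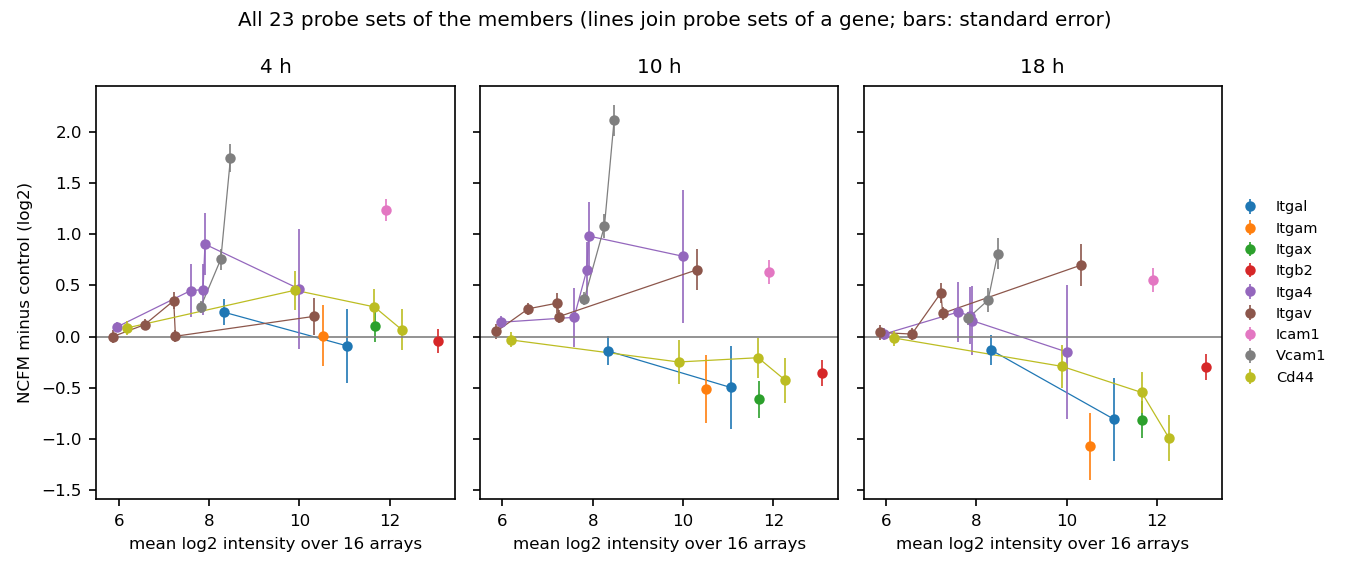
NCFM minus control difference in log2 intensity (vertical axis, bars show the standard error) against mean log2 intensity over 16 arrays (horizontal axis) for all 23 probe sets, coloured by gene and joined within a gene, at 4 h, 10 h and 18 h. The dimmest probe sets of Itga4 and Cd44 lie near 0, and the 3 Vcam1 probe sets lie above 0 at each time.

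Some of the 9 genes also differed by array number, and whether the conditions differ in this was not tested. Array 1 was below the other arrays of its group in 6 of 6 groups for Itga4 (mean log2 difference -1.19, range -2.15 to -0.76), for Itgal (-0.74, -1.04 to -0.53) and for Itgam (-0.46, -0.82 to -0.13). Itgax went the other way and was higher on array 1 in 6 of 6 groups (0.34, 0.30 to 0.42). Cd44 (-0.30, -0.73 to 0.04) and Itgb2 (-0.14, -0.33 to 0.01) were lower on array 1 in 5 of 6 groups each. Icam1, Vcam1 and Itgav showed no common sign: array 1 was the lower in 3, 3 and 4 of 6 groups. Beside these, the macrophage or monocyte markers without Itgam averaged 0.53 lower on array 1 (-0.53, lower in 6 of 6 groups), the proliferation markers 1.16 higher (higher in 6 of 6), the neutrophil markers 0.31 higher (higher in 6 of 6) and the dendritic cell markers without Itgax 0.28 higher (higher in 6 of 6). The other 7 marker lists averaged between -0.18 and 0.03. Xist was also lower on array 1 in 6 of 6 groups (-4.32) and the Y-linked Eif2s3y higher (3.89). The part of these differences in the genes' values was not tested.

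**Figure D4:**
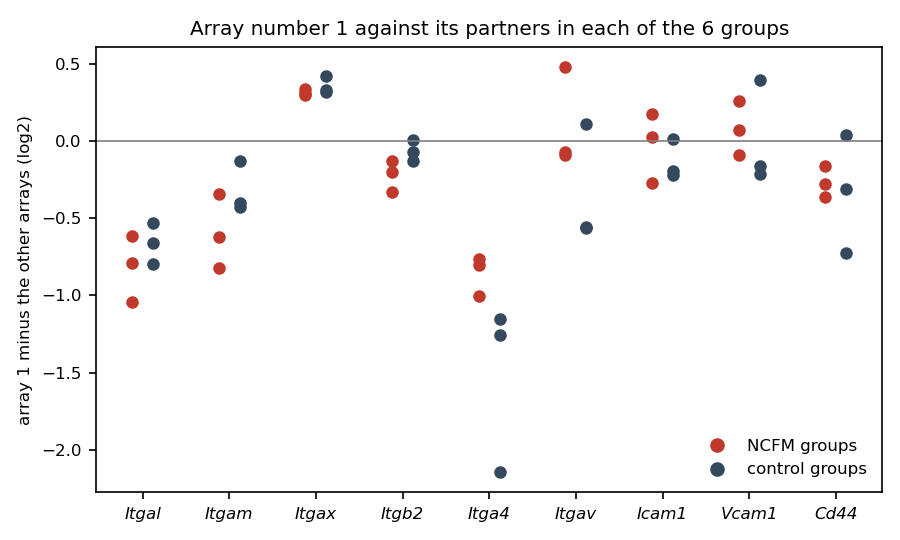
Array 1 minus the mean of the other arrays of its group, in log2 intensity (vertical axis), for each of the 9 genes (horizontal axis); each point is 1 of the 3 NCFM or 3 control groups. Itga4, Itgal and Itgam lie below 0 and Itgax above 0 in all 6 groups.

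Across times in control cells, none of the 9 genes was called in any of the 3 comparisons, and neither was any of the 18193 genes (limma, 0% of genes called). At an unadjusted p under 0.05, 2, 1 and 0 of the 9 genes and 553, 559 and 653 of all genes passed at 10 h against 4 h, 18 h against 4 h and 18 h against 10 h. The lowest adjusted p among the 9 was 0.0775, for Itgax at 18 h against 4 h with the block (log2 difference -0.53). In treated cells, 1 gene was higher and 2 lower at 10 h than at 4 h (Vcam1, against Itgax and Icam1), and Vcam1 alone was lower at 18 h than at 10 h. No gene of the 9 was called in the effect at 10 h minus 4 h (limma, 0.506% of all genes) or at 18 h minus 10 h (0.0055%), where 2 and 1 had an unadjusted p under 0.05. With the block 2 and 1 were called, beside 2.51% and 0.451% of all genes, and 6 were at 18 h minus 4 h, beside 9.15%. With the block the counts in treated cells were 1 higher and 5 lower, and 0 higher and 3 lower, beside 12.6% and 7.23% of all genes, the added ones being Itgam, Itgal and Itgb2 in the first and Itgax and Cd44 in the second. The 10 h against 4 h call of Icam1 in treated cells (-0.47, adjusted p = 0.0211) was lost without NCFM 4 h array 3 (0.0587) or NCFM 10 h array 2 (0.0942) or 3 (0.081), with an intensity trend (0.0582) and in a fit of the compared groups alone (0.113).

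Over the 16 arrays, Itgam and Itgal had a Pearson correlation of 0.89 in log2 intensity, Itgam and Cd44 0.87, Itgal and Cd44 0.86, and Icam1 and Vcam1 0.81. These describe arrays that share treatment, time and number. Among 9745 genes whose highest group mean reached a log2 intensity of 8, the pattern most like that of Icam1 was Nfkbiz, which encodes an IkB protein (r = 0.98), followed by Map3k8, a kinase of the Toll-like receptor pathway, and Wdr37 (both 0.97). Nearest to Itgal was Fn1, which encodes fibronectin (0.95). For Vcam1 they were Prpf38a, Asb13 and Gmppb (0.97 to 0.95), for Itgax Ebna1bp2, Nomo1 and Tra2b (each 0.96), for Itgam Ttc37, Usp34 and Thoc2 (0.96 to 0.93) and for Itga4 Rufy3, Sgms2 and Tifa (0.94 to 0.92). Cd44 had Reep3, Eif2s3x and Zfp318 (0.96 to 0.95), Itgb2 had Agpat4, Atp6ap1 and Glipr1 (0.92 to 0.90) and Itgav had Agrn, Kpna4 and Epha1 (0.84 to 0.83).

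Beyond the 9 genes, 120 of 130 other adhesion genes in 9 lists were measured. Of these, 9 were higher and 12 lower at 4 h, 16 higher and 21 lower at 10 h, and 13 higher and 27 lower at 18 h, with median log2 differences of 0.04, -0.02 and -0.05. Those shares, 21, 37 and 40 of 120, stand beside the 18.3%, 24.7% and 23.7% of all genes called.

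Among the other integrin chains, Itga1, a collagen receptor chain, read 295 to 322 in NCFM-treated cells at 10 h, against 656 to 743 in control cells, and 165 to 229 at 18 h, against 598 to 756 in control cells. It was lower at both times (log2 difference -1.20 and -1.84, adjusted p = 0.00175 and 0.000108). Itga5, the alpha chain of the classical fibronectin receptor, was higher at 18 h, at 1268 to 2345 in NCFM-treated cells and 367 to 643 in control cells (1.78, adjusted p = 0.000829). Itgb8, a beta chain that pairs with alpha V, was higher at 10 h, at 281 to 475 in NCFM-treated cells and 58 to 76 in control cells (2.48, adjusted p = 0.000805). Those control values lie below the first quartile of every array, close to background, and the difference ran from 2.11 to 4.24 over 26 alternatives. Itgb7, a partner of alpha 4, was lower at 18 h (-0.82, adjusted p = 0.00342). Of the 11 other alpha chains measured, 2 were higher and 1 lower at 18 h, and of the 7 other beta chains 0 were higher and 1 lower. Over all genes 7.4% were called higher and 16.3% lower at 18 h.

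Of 16 measured ligands and counter-receptors other than Icam1 and Vcam1, 4 were higher and 1 lower at 4 h, 5 and 1 at 10 h, and 4 and 3 at 18 h. Beside these counts, 5.27%, 8.21% and 7.4% of all genes were called higher and 13.1%, 16.5% and 16.3% lower. Jam2, a junctional ligand of alpha 4 beta1, read 286 to 348 in NCFM-treated cells at 10 h and 159 to 173 in control cells, and was higher at all 3 times (log2 difference 0.76, 0.94 and 0.93, adjusted p = 0.000575, 0.000209 and 0.000246). Lgals3bp, which encodes a secreted integrin-binding glycoprotein, was higher at 18 h (1.52, adjusted p = 0.00376). Icam2, the relative of Icam1 that binds LFA-1, read 198 to 237 in NCFM-treated cells at 18 h and 286 to 341 in control cells, a difference of -0.55 (adjusted p = 0.0147). That call was lost without control 18 h array 2 (-0.42, adjusted p = 0.141), after centring on spike-in controls (0.0661) and in a fit of the 18 h arrays alone (0.0509).

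None of the 8 selectins and homing genes and none of the 18 genes of inside-out activation, the signalling that switches integrins to their binding form, was called higher at any time (limma), and at an unadjusted p under 0.05 none of the homing genes and 1, 0 and 1 of the activation genes were higher at 4 h, 10 h and 18 h. With 5.27%, 8.21% and 7.4% of all genes called higher, a count of 0 in lists of this size is near the share over all genes. Of the activation genes 2 were lower at 4 h, 5 at 10 h and 5 at 18 h, beside 13.1%, 16.5% and 16.3% of all genes. Rassf5, which encodes the Rap1 effector RAPL that acts on LFA-1, read 448 to 592 in NCFM-treated cells at 18 h, against 1736 to 1950 in control cells, and was lower at each time (log2 difference -0.91, -1.62 and -1.86, adjusted p = 0.00129, 3.9e-05 and 1.73e-05). Among homing genes, the fucosyltransferase gene Fut4 was lower at each time (-0.68, -0.93 and -1.06, adjusted p = 0.0055, 0.00114 and 0.0005). Of 18 focal adhesion and podosome genes 1 was higher and 2 lower at 4 h, 2 and 4 at 10 h, and 1 and 4 at 18 h. These counts stand beside the same shares of all genes called higher and lower. Was, which encodes the actin regulator WASP, was lower at each time (-0.73, -1.03 and -0.61, adjusted p = 0.000234, 3.61e-05 and 0.00131), and Ilk, integrin-linked kinase, at 10 h and 18 h (-0.86 and -0.98, adjusted p = 0.00129 and 0.000549).

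In the list of 13 hyaluronan and CD44 partner genes 1 was higher and 1 lower at each time. The shares of all genes at 4 h, 10 h and 18 h were 5.27%, 8.21% and 7.4% higher and 13.1%, 16.5% and 16.3% lower. Cemip2, which encodes a membrane protein that degrades hyaluronan, read 1171 to 1810 in NCFM-treated cells at 4 h, against 369 to 443 in control cells, and was higher at each time (log2 difference 1.91, 1.86 and 1.499, adjusted p = 0.000448, 0.000841 and 0.00338). The calls of Itga1, Itga5, Itgb8, Itgb7, Jam2, Lgals3bp, Rassf5, Fut4, Was, Ilk and Cemip2 given in these paragraphs held under each of 26 alternatives.

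**Figure D5:**
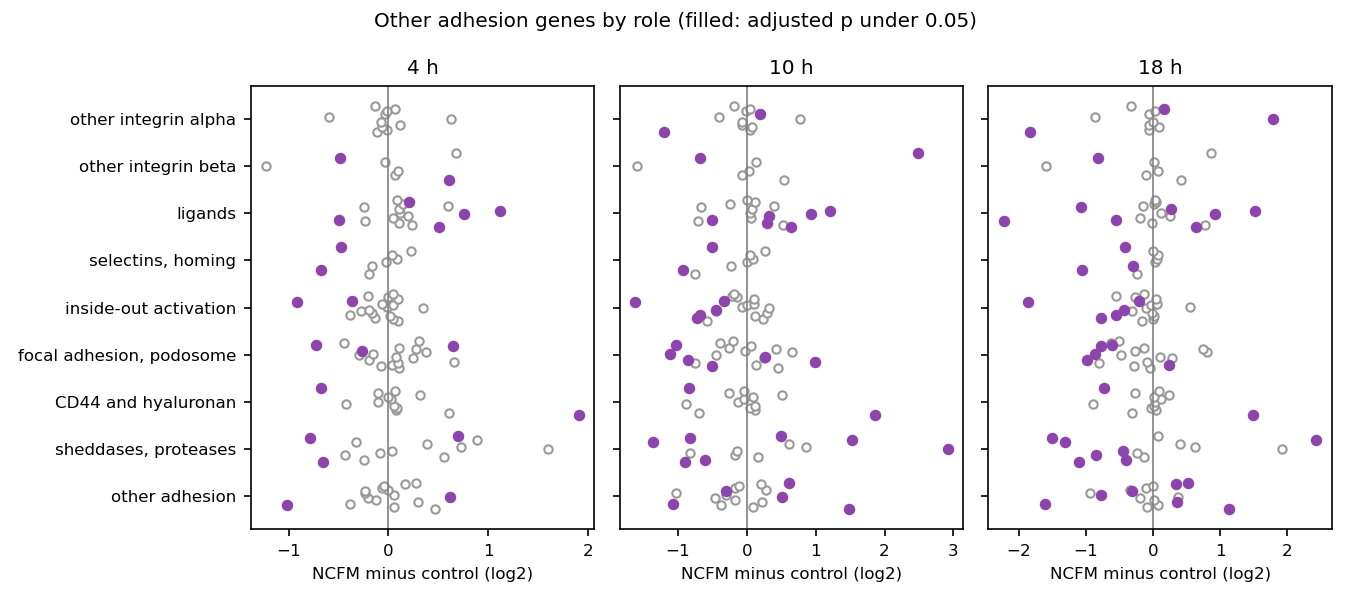
NCFM minus control difference in log2 intensity (horizontal axis) for each measured gene of 9 lists of other adhesion genes (rows) at 4 h, 10 h and 18 h; filled points passed at an adjusted p under 0.05. Itgb8 at 10 h and Itga5 at 18 h lie far to the right among the integrin chains, and Itga1 at 18 h far to the left.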

How the data were processed

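Total RNA of the dendritic cells was labelled with biotin and measured on single-channel arrays of 45101 probe sets. The table deposited by the authors holds an intensity on a linear scale per probe set and array; its medians are nearly equal, and the summarization and normalization behind it are not given in the sources used here. Intensities were put on the log2 scale as deposited, with no further normalization. GEO's platform annotation names 1 gene for 34945 probe sets, several for 932 and none for 9160, besides 64 control probe sets; symbols were updated by gene ID for 34754. Of 18193 genes, 9010 had several probe sets, and the one with the highest mean was used. Means of 6 groups were fitted over 16 arrays with limma 3.58.1 in R 4.3.3 (10 residual degrees of freedom); adjusted p-values are Benjamini-Hochberg over all genes and a call is an adjusted p under 0.05. Of 200 genes changed by 1 log2 unit in each of 5 simulated data sets of 18193 genes, 87.9%, 86.2% and 84.2% were recovered at 4 h, 10 h and 18 h, with 5.48%, 4.75% and 5.36% of calls false. The simulated noise was independent between arrays, so these rates do not cover differences by array number. The number of arrays limits the precision.

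Same-numbered arrays deviated together: the correlation of their deviations from group means was 0.19 to 0.75 in 36 of 36 pairs (median 0.42). In 70 pairs of different number the median was -0.32 and the highest 0.73, with 13 over 0.1. Deviations of a group sum to 0, so same-number and different-number pairs are not independent. Whether arrays 2 and 3 pair across groups, apart from the difference of array 1, was not tested. By the same-number pairs, array number was fitted as a block in the paired analysis. Other alternatives were quantile normalization, centring on spike-in probe sets, background subtraction (the array's 5th percentile, floor 16), averaging the probe sets of a gene, every probe set as a row, leaving out genes below a log2 intensity of 7, an intensity trend with robust variance, fits of the compared groups alone and leaving out each array. A fit of the arrays numbered 2 and 3 was added after the data were seen.

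The 9 genes, the adhesion lists and the cell type markers were chosen with earlier results of these data known. The genes named are the 9 with all their probe sets, for each the 3 genes of most similar pattern, and, from each list, called genes with large changes at some time and a few others by role. Promoter sequences come from RefSeq's table of GRCm38.p6 and were searched in Python 3.11.15; figures were drawn with matplotlib 3.10.9.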

Additional observations from a re-analysis of the deposited data

Results flagged for a closer look

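The difference between NCFM-treated and control cells changed with time for the 2 ligands by a test of the difference itself. For Icam1 the effect at 18 h was below that at 4 h (-0.68 ± 0.16, log2, SE, adjusted p = 0.0379). For Vcam1 it was below that at 4 h as well (-0.94 ± 0.20, adjusted p = 0.028), after an effect at 10 h of 2.12. Of all genes 3.4% were called in this comparison. Without control 18 h array 2, neither call held (-0.57 for Icam1 and -0.83 for Vcam1). Other single arrays ended these calls too: the Icam1 call held in 15 of 26 alternatives and the Vcam1 call in 19 of 26. The dimmer Vcam1 probe sets 1415989_at and 1451314_a_at gave -0.40 and -0.11 in this comparison, and neither was called. No group holds more than 3 arrays, so single arrays could not be tested for lying far from the rest of their group.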

How the results depend on the processing

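None of the 9 genes changed direction in a called comparison under any of 26 alternatives: 2478 of the values of single genes kept their side of the threshold, 43 passed it only in an alternative and 53 only in the fit of 6 group means. With the array number as a block, the paired analysis called 7 of the 9 genes at 10 h in place of 4, 2, 1 and 6 in the effects at 10 h minus 4 h, 18 h minus 10 h and 18 h minus 4 h in place of 0, 0 and 2 (2.51%, 0.451% and 9.15% of all genes), and 6 and 3 in treated cells at 10 h against 4 h and 18 h against 10 h in place of 3 and 1 (12.6% and 7.23%); of the 120 other adhesion genes it called 35 at 4 h in place of 21. It changed no other call of the 9 genes than those given with their values or named for treated cells between times. Centring on spike-in probe sets moved the median of all genes by 0.19, -0.24 and 0.01 at 4 h, 10 h and 18 h and turned the split of calls over all genes at 4 h to 3312 higher and 738 lower (959 and 2376 as deposited) and at 10 h to 647 and 6185 (1493 and 2995), while the 9 genes gave 4 calls in the effects at 10 h minus 4 h and at 18 h minus 4 h, beside 52.5% and 4.75% of all genes, and 6 and 2 in treated cells at 10 h against 4 h and 18 h against 10 h, beside 34.2% and 4.94%; Itga7, called higher at 10 h by 0.19, came out at -0.0598. An intensity trend with robust variance left 1 call at 18 h minus 4 h (2.89% of all genes). Fits of the compared groups alone left 3 calls at 18 h (13.5% of all genes) and 1 at 18 h minus 4 h (2.84%), and 19 of the other adhesion genes at 18 h in place of 40. The arrays numbered 2 and 3 gave 3 calls in treated cells at 18 h against 10 h (7.06%). Leaving out each array in turn gave 2 to 2 calls at 4 h, 2 to 5 at 10 h, 2 to 6 at 18 h, 0 to 3 at 18 h minus 4 h and 1 to 4 in treated cells at 10 h against 4 h (of all genes 11.8% to 20.1%, 11.7% to 26.1%, 15.8% to 24.8%, 1.66% to 4.35% and 2.83% to 6.97%), and among the other adhesion genes 13 to 24, 19 to 39 and 28 to 42 at 4 h, 10 h and 18 h; the lowest came without control 4 h array 2 (13) and control 10 h array 1 (19). With 2 control arrays at 10 h and at 18 h, leaving one out assumes that the other varies like the remaining groups. Probe sets near the first quartile of the arrays are close to background, which limits what they can show.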

Other observations

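Of 13 measured sheddases, matrix proteases and their inhibitors, 1 was higher and 2 lower at 4 h, 3 and 4 at 10 h, and 1 and 6 at 18 h. Over all genes 5.27%, 8.21% and 7.4% were called higher and 13.1%, 16.5% and 16.3% lower at these times. Timp1 and Timp2, both inhibitors of matrix metalloproteinases, went opposite ways. Timp1 read 1566 to 3765 in NCFM-treated cells at 18 h, against at most 489 in control cells (log2 difference 2.44, adjusted p = 0.000296, limma). Timp2 was lower at 4 h, 10 h and 18 h (-0.79, -0.82 and -1.51, adjusted p = 0.00454, 0.00523 and 0.00011). Adam10, a protease known to shed CD44, was lower at 18 h (-1.10, adjusted p = 0.00251).

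Among 16 other leukocyte adhesion genes, 4 were higher and 3 lower at 18 h, beside 7.4% and 16.3% of all genes. Alcam, the ligand of CD6 on T cells, read 2798 to 3113 in NCFM-treated cells at 10 h, against 863 to 1306 in control cells (log2 difference 1.48, adjusted p = 0.000124). The tetraspanin gene Cd9 was lower at 18 h (-0.77, adjusted p = 0.00069). These calls of Timp1, Timp2, Adam10, Alcam and Cd9 held under each of 26 alternatives.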
